A study of Mus musculus with 12 samples.

Results

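Trpm1, Crxos1, Dmgdh, Jakmip1, Aqp3 and Calr4 are 6 genes of 26061 in the gene table that stood strongly higher in 2i medium than in serum medium in control mouse embryonic stem cells. They were chosen by name for their high 2i values in control cells, so their gap there is given below as a description without a test. Results of the knockdown libraries were also known when the genes were chosen, so the tests in knockdown cells use other libraries but are not independent of the choice. The question put to them was whether the high level in 2i held after knockdown of Setdb1. All 6 passed the filter on low values, set on the mean over all 12 libraries, which kept 14487 genes. Calr4 passed it only through its 2i libraries, as its serum libraries alone averaged below the filter.

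After Setdb1 knockdown all 6 genes were still higher in 2i than in serum in every library, as 8.99% of the genes tested were, and 5 of the 6 passed the test (adjusted p under 0.05), as 2.15% of genes did in that direction. Trpm1 was 144-fold higher, Dmgdh 61-fold, Crxos1 47.6-fold, Calr4 23.4-fold and Jakmip1 7.13-fold, as ratios of mean normalised reads over 3 libraries a group. Aqp3 was 2.11-fold higher and did not pass. No member passed the test for a change with knockdown in either medium, where 1.27% of genes passed in 2i and 0.649% in serum. In bulk RNA a lower level cannot be told apart from fewer cells expressing the gene.

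Embryonic stem cells kept in serum with LIF are a mixture of states, while 2i medium holds them in a more uniform naive state by blocking MEK and GSK3. Blocking MEK shuts down transcription driven by ERK signalling, and blocking GSK3 stabilises beta-catenin and relieves repression by TCF factors. SETDB1 is a histone H3K9 methyltransferase that, brought to its sites by KRAB zinc finger proteins and TRIM28, silences retroelements and some genes in embryonic stem cells.

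RNA was measured in 12 libraries of the E14 line (129/Ola background), grown without feeders, in 4 groups of 3. These were 2i with an shRNA against Setdb1, 2i with the control shRNA (shScr), serum with the Setdb1 shRNA and serum with the control shRNA. The labels call the 2i cells naive and the serum cells primed. Serum medium was DMEM with fetal bovine serum and LIF, whereas 2i medium had a DMEM F-12 and neurobasal base with N2, B27 and LIF, plus PD0325901 to block MEK and CHIR99021 to block GSK3, so the media also differed in base and supplements. All cells, controls included, carried a lentiviral pLKO.1 vector and had been selected in puromycin for 3 days. The labels name 1 shRNA against Setdb1 and no rescue, and they do not say whether the 3 libraries of a group came from separate cultures, so the p-values measure the spread between these libraries, which may be technical.

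The libraries held 4821181 to 15509401 reads in genes. Setdb1 itself had 837, 610 and 340 normalised reads in 2i knockdown libraries and 3607, 2724 and 2253 in 2i control libraries. In serum it had 418, 379 and 409 in knockdown libraries and 2959, 2237 and 1587 in control libraries. Every knockdown library was lower than every control library of its medium (log2 change −2.24 in 2i, adjusted p = 0.00173, and −2.33 in serum, adjusted p = 0.00219, limma with Benjamini-Hochberg adjustment over all genes tested). The summed normalised reads of 8 embryonic stem cell markers, 28% of them from Tdgf1, were between 37265 and 60542 in every library. Single markers varied more than this sum shows. Utf1 averaged 35.9 in 2i knockdown, 25.9 in 2i control, 157 in serum knockdown and 104 in serum control cells. Nanog averaged 4663, 4966, 2541 and 4241 in the same order. None of the 8 passed in any comparison. Other marker lists differed between groups. The sum of 8 fibroblast markers, 95.4% of it Vim, was 2923 to 5837 in 2i knockdown, 4776 to 6332 in 2i control, 1556 to 3754 in serum knockdown and 809 to 2205 in serum control libraries. All 8 had reads, but Col1a1, Col1a2, Col3a1, Dcn and Postn had only 62, 26, 15, 2 and 18 over all 12 libraries. These averaged at most 6.51 normalised reads in 2i knockdown cells, each above its 2i control mean. Lum averaged 460 normalised reads in 2i knockdown and 0.92 in 2i control cells. By contrast, Vim averaged 3449 in 2i knockdown and 5424 in 2i control cells, and Thy1 14.5 and 16.1. The sum of 7 epithelial markers was 6161 to 9790 in 2i knockdown, 3480 to 6096 in 2i control, 8071 to 12495 in serum knockdown and 2981 to 5023 in serum control libraries, with Krt5 at 0. Of these, Epcam rose with knockdown (log2 change 2.51 in 2i, adjusted p = 0.00109, and 2.13 in serum, adjusted p = 0.00817, limma). Cdh1, which held 51.4% of the sum, changed by 0.03 in 2i and 0.57 in serum. Krt18 changed by 1.29 and −0.36 and Krt19 by 0.26 and −0.41, and neither these nor Cdh1 passed. Krt14 and Trp63 had 32 and 36 reads over all 12 libraries. The part of these markers in the levels below was not tested. Structural RNA, such as rRNA and tRNA repeats, took 19.9%, 55.6% and 69.5% of the repeat reads in 2i knockdown replicates 1, 2 and 3, and 32.1%, 38.9% and 64.6% in those of 2i control. It took 16.1%, 15.6% and 42.6% in serum knockdown and 24.2%, 29.9% and 48.3% in serum control. Without the 3 libraries above 50%, the change of Setdb1 in 2i was −1.85 and did not pass (adjusted p = 0.0978, limma). Normalised reads are reads divided by the library's size factor, and values of 3 libraries are always given in the order of replicates 1, 2 and 3.

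**Figure D1:**
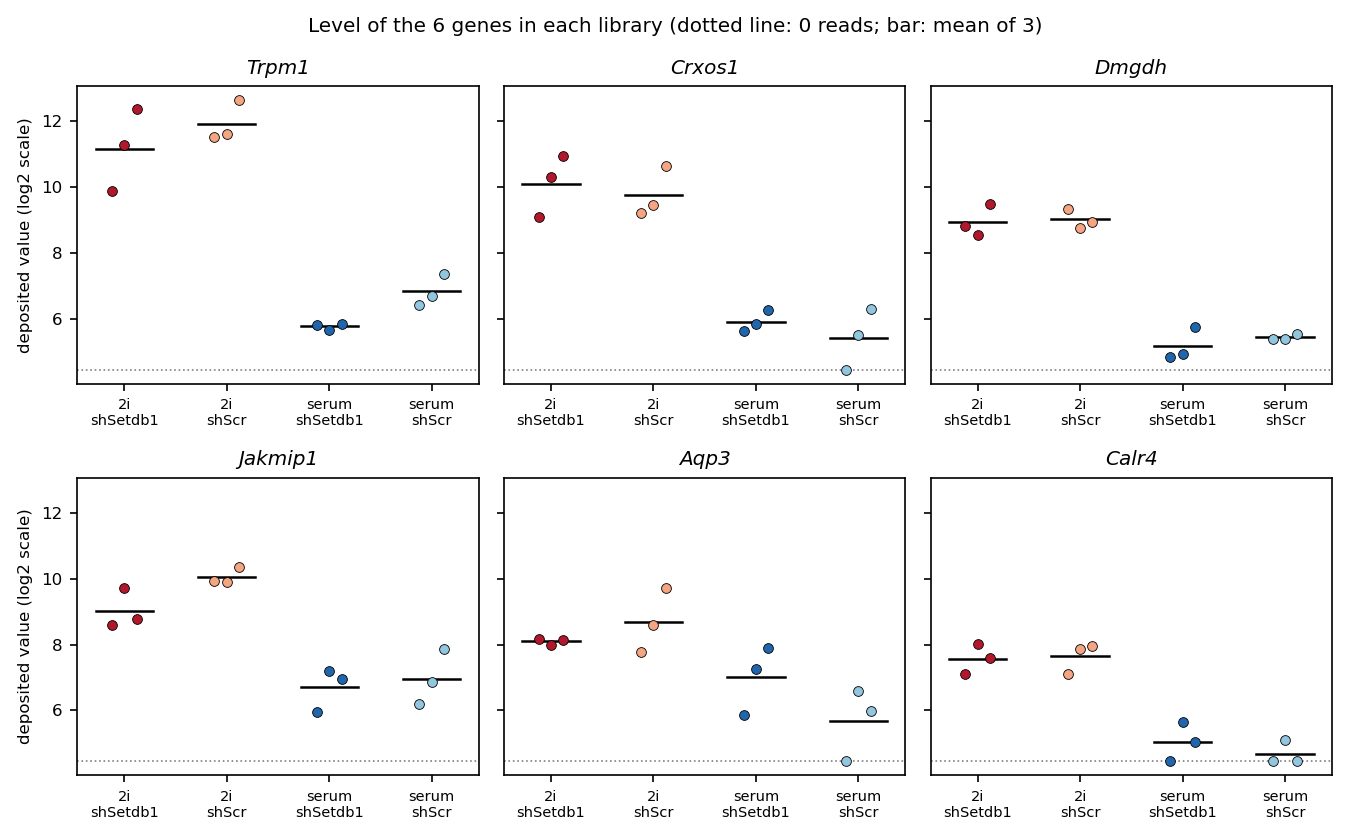
Each panel plots 1 gene: the deposited value on a log2 scale (vertical axis) in the 3 libraries of each group, in the order of replicates 1 to 3, with the group mean as a bar; the dotted line at 4.4522 is the value of 0 reads. All 6 genes have every 2i knockdown library above every serum knockdown library, and the narrowest distance is that of Aqp3.

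Trpm1 encodes a cation channel of the TRPM family that is best known from retinal bipolar cells and melanocytes. It had 891, 2436 and 5213 normalised reads in 2i knockdown libraries and 2899, 3068 and 6422 in 2i control libraries. Its serum values were 21.3, 16.0 and 22.1 in knockdown libraries and 47.8, 65.7 and 124 in control libraries. The 2i libraries of both shRNAs were far above all 6 serum libraries, and replicate 3 was the highest library of each group.

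In knockdown cells, whose libraries are not those of the control gap, Trpm1 was higher in 2i by 5.39 on the log2 scale (SE 0.50, 95% interval 4.34 to 6.45, adjusted p = 0.000102, limma), which ranked 1 of the 14487 genes tested. Without 2i knockdown replicate 3 the ratio was 84.1-fold in place of 144-fold. This difference, 2i minus serum, is called the gap; in control cells it was 5.09, a description that also ranked 1. In each of the 4 groups the libraries ranked by Trpm1 as they did by their structural RNA share; the part of those shares in the level was not tested. Without the 3 libraries in which structural RNA exceeded 50%, which leaves 1 library in 2i knockdown, the gap in knockdown cells was 4.09 (adjusted p = 0.00214, limma).

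Within a medium, the log2 difference of Trpm1, knockdown minus control, was −0.76 in 2i, with overlapping libraries (95% interval −1.82 to 0.29, adjusted p = 0.83, limma). In serum, where all 3 knockdown libraries were below all 3 control libraries, as for 3.59% of genes, the log2 difference was −1.06 (95% interval −2.12 to −0.01, unadjusted p = 0.0488, adjusted p = 0.967, limma). Neither passed the test over all genes.

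In melanocytes Trpm1 is a known target of MITF, a transcription factor that binds E-box sequences. Mitf had 1941, 3228 and 3177 normalised reads in 2i knockdown libraries and 1881, 1899 and 2282 in 2i control libraries. Serum cells had 449, 238 and 251 in knockdown libraries and 657, 354 and 340 in control libraries. Mitf was therefore above all serum libraries in every 2i library, and the gap was 3.01 in knockdown cells (SE 0.32, adjusted p = 0.000478, limma) and 2.12 in control cells (SE 0.32, adjusted p = 0.00279, limma). It was the only gene of 4 tested from a list of MITF and pigment genes that passed in either of those comparisons. The pigment enzymes Tyr, Tyrp1 and Dct had 1, 28 and 3 reads over all 12 libraries, and the retinal genes Nrl and Rcvrn had 0. Other genes of these lists were read more: Pmel had 1033 reads, Mlana 350 and the retinal and early embryonic factor gene Otx2 5922. Gpnmb averaged 66.3 normalised reads in 2i knockdown, 59.8 in 2i control, 4.6 in serum knockdown and 9.31 in serum control cells. Its knockdown libraries in 2i were all above those in serum, but the gap of 1.42 did not pass (adjusted p = 0.146, limma).

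The 2 promoter windows of Trpm1 are shown because they let the letters of the E-box be seen beside the levels of both genes. Each window runs 250 bases before to 50 after an annotated start (RefSeq, GRCm38.p6, plus strand), at chr7:64153585-64153884 and chr7:64185209-64185508; the deposited values were made on mm9, so these positions are not those of the files. Capitals mark CACATG and CACGTG (E-boxes), CCACCC (a KLF motif), CTTTGA (a TCF motif) and ATGCAAA (an octamer), each on either strand, and no marked stretch overlaps another.
Trpm1 first window: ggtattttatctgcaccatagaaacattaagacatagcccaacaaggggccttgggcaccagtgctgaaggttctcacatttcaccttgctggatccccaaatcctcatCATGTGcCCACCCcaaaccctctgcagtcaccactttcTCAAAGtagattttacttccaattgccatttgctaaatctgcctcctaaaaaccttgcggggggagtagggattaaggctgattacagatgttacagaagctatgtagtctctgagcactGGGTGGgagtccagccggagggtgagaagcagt
Trpm1 second window: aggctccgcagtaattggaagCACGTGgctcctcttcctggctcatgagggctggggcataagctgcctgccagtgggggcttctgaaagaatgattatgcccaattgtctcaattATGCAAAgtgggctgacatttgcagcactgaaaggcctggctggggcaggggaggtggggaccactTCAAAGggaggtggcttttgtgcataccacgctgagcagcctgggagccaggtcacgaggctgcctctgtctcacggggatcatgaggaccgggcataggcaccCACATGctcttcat

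Both Trpm1 windows hold CACATG, and the second also holds CACGTG. Of all 32851 windows of the same length, 14.2% hold CACATG and 7.15% hold CACGTG, so these letters are common and a match is a description only. CTTTGA is in 16% and CCACCC in 31.5% of windows.

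Aqp3 encodes an aquaglyceroporin, a membrane channel for water and glycerol. It had 248, 214 and 238 normalised reads in 2i knockdown libraries and 176, 343 and 799 in 2i control libraries. In serum medium there were 22.8, 114 and 196 in knockdown libraries and 0, 56.9 and 26.7 in control libraries. The 2i knockdown libraries lay close together, whereas the serum knockdown libraries were spread widely and the highest of them came close to the lowest 2i knockdown library.

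In knockdown cells Aqp3 was higher in 2i by 1.09 on the log2 scale (SE 0.59, 95% interval −0.17 to 2.36, adjusted p = 0.35, limma), which ranked 768, against a described gap of 3.02 in control cells. Without serum knockdown replicate 3, the highest serum library, the ratio was 3.42-fold in place of 2.11-fold. Knockdown minus control, the log2 difference was −0.59 in 2i (adjusted p = 0.898, limma) and 1.34 in serum (95% interval 0.08 to 2.60, unadjusted p = 0.0386, adjusted p = 0.905, limma), with libraries overlapping in each medium. The difference between these changes, 2i minus serum, was −1.93 (SE 0.84, unadjusted p = 0.0358, adjusted p = 1, limma). The control libraries in these tests also chose the gene, so a smaller gap after knockdown cannot be told apart from the effect of that choice.

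Dmgdh encodes dimethylglycine dehydrogenase, a mitochondrial flavoenzyme that turns dimethylglycine into sarcosine in the breakdown of choline and betaine. It had 412, 333 and 672 normalised reads in 2i knockdown libraries and 610, 394 and 453 in 2i control libraries. In serum it had 1.52, 2.53 and 19.2 in knockdown libraries and 9.77, 9.77 and 12.8 in control libraries. All 6 serum libraries were near 0, and the 2i libraries of both shRNAs covered about the same range.

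In knockdown cells Dmgdh was higher in 2i by 3.78 on the log2 scale (SE 0.35, adjusted p = 0.000102, limma), rank 4, beside a described gap of 3.58 in control cells. The ratio of 61-fold became 233-fold without serum knockdown replicate 3, which held most of the reads of its group. In 2i the level after knockdown was 97.2% of control (log2 difference −0.07, 95% interval −0.81 to 0.66, adjusted p = 0.98, limma).

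The enzyme step before Dmgdh, in which betaine gives a methyl group to homocysteine and becomes dimethylglycine, is carried out by Bhmt. Bhmt2, its close relative, uses S-methylmethionine as methyl donor. Both genes lie beside Dmgdh on chromosome 13. Bhmt2 had 93.0, 80.2 and 174 normalised reads in 2i knockdown libraries and 201, 66.9 and 330 in 2i control libraries. Its serum values were 0, 0 and 8.63 in knockdown libraries and 10.9, 3.55 and 18.2 in control libraries. Every 2i library was above every serum library, and the gap was 2.49 in knockdown cells (SE 0.45, adjusted p = 0.00639, limma) and 2.33 in control cells (SE 0.45, adjusted p = 0.00891, limma).

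Bhmt had 109, 153 and 509 normalised reads in 2i knockdown libraries and 186, 77.9 and 336 in 2i control libraries. Serum cells had 11.4, 0.842 and 1.92 in knockdown libraries and 6.51, 13.3 and 80.2 in control libraries. The knockdown groups did not overlap, whereas the lowest 2i control library was just below the highest serum control library. The gap was 2.95 in knockdown cells (SE 0.55, adjusted p = 0.00813, limma) and 1.86 in control cells (SE 0.55, adjusted p = 0.0782, limma). Neither gene passed in knockdown cells without the 3 libraries over 50% structural RNA (adjusted p = 0.18 for Bhmt and 0.0986 for Bhmt2, limma). The 2 genes are paralogues, and how the counting split reads between them is not given in the sources used here.

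Dmgdh and Bhmt2 start 134 bases apart on opposite strands and point away from each other, so that their promoter windows share 233 bases. The windows are shown because 2 neighbouring genes that were both higher in 2i have their starts in this single stretch (RefSeq, GRCm38.p6; Dmgdh on the plus strand at chr13:93674186-93674485, Bhmt2 on the minus strand at chr13:93674253-93674552). Capitals mark CCACCC on either strand.
Dmgdh: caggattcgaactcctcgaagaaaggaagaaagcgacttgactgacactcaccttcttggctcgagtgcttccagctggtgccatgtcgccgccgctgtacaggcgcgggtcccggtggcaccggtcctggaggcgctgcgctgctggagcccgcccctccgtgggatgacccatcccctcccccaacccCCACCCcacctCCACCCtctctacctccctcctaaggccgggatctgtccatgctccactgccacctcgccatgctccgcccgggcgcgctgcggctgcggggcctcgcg
Bhmt2: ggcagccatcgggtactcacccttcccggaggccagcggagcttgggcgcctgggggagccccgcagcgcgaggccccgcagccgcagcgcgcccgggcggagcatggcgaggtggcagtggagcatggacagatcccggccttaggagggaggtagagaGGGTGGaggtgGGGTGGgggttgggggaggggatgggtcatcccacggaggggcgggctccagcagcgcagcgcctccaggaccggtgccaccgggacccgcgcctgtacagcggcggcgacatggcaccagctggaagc

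The Dmgdh window holds 25 CpG dinucleotides, and that of Aqp3 holds 21, against a median of 7 over all windows (quartiles 3 and 20). The windows of the other 4 members held between 0 and 7 CpG: 2 to 6 for Trpm1, 0 to 4 for Crxos1, 1 to 6 for Jakmip1 and 2 to 7 for Calr4. The members therefore do not share a promoter type by this measure.

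**Figure D2:**
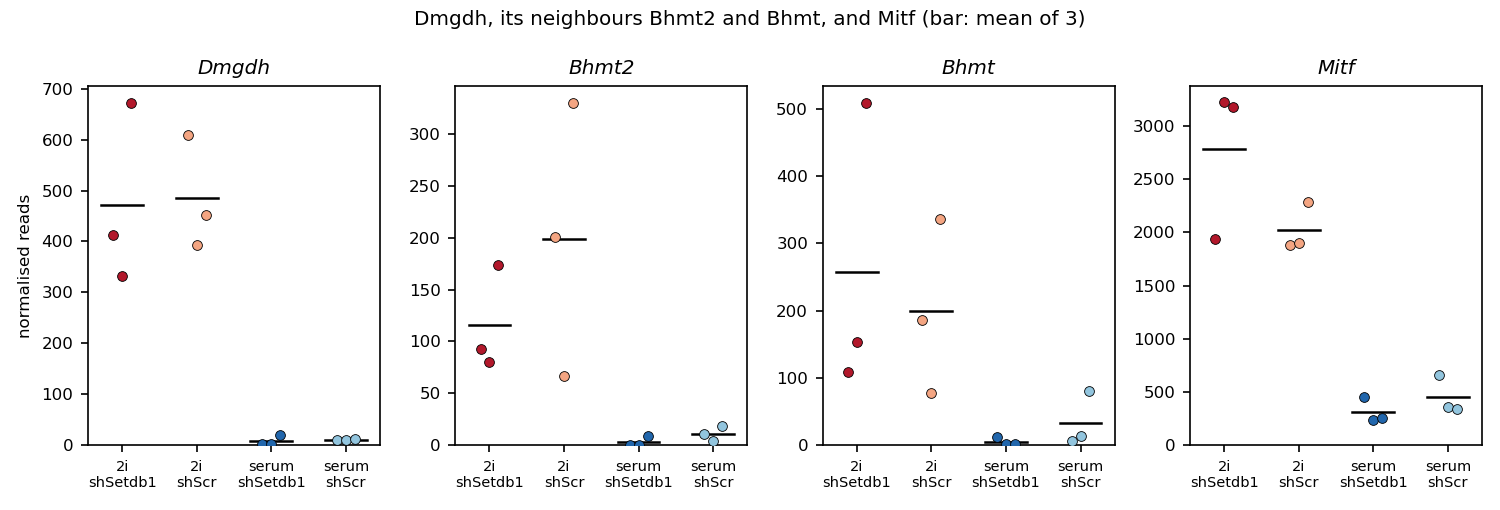
Normalised reads (vertical axis, linear, from 0) of Dmgdh, Bhmt2, Bhmt and Mitf in the 3 libraries of each group, in the order of replicates 1 to 3, with the mean as a bar. Serum libraries of Dmgdh stay at or below 19.2 and those of Bhmt2 at or below 18.2, while every 2i library of Mitf is at or above 1881.

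Crxos1 encodes a homeobox protein, and its gene lies antisense to Crx, a retinal transcription factor gene. It had 497, 1218 and 1925 normalised reads in 2i knockdown libraries and 549, 658 and 1547 in 2i control libraries. In serum medium there were 15.2, 21.9 and 39.3 in knockdown libraries and 0, 12.4 and 40.6 in control libraries. The serum groups covered the same low range, and replicate 3 was the highest library of each group.

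In knockdown cells Crxos1 was higher in 2i by 4.20 on the log2 scale (SE 0.53, adjusted p = 0.000963, limma), rank 3, beside a described gap of 4.35 in control cells. Its level in 2i after knockdown was 132% of control (log2 difference 0.34, 95% interval −0.78 to 1.46, adjusted p = 0.934, limma). That ratio of 1.32 was 2.01 without 2i control replicate 3 and 0.935 without 2i knockdown replicate 3. The libraries were made with a directional kit, but the strand setting of the counting is not given in the sources used here; Crx had 12 reads over all 12 libraries. In 3 of the 4 groups, all but serum knockdown, the libraries ranked by Crxos1 as they did by their structural RNA share. Without the 3 libraries over 50% the gap was 3.17 (adjusted p = 0.0379, limma); the part of those shares in the level was not tested.

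Jakmip1 encodes a coiled-coil protein that binds Janus kinases and microtubules and is best known from neurons. It had 346, 799 and 398 normalised reads in 2i knockdown libraries and 928, 907 and 1255 in 2i control libraries. In serum it had 25.9, 106 and 84.4 in knockdown libraries and 35.8, 75.5 and 191 in control libraries. The 2i control libraries were highest, the 2i knockdown libraries lay below them without overlap, and the serum groups were lowest and overlapping. The 2i control libraries also chose the gene, so the step between the 2i groups cannot be told apart from the effect of that choice.

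In knockdown cells Jakmip1 was higher in 2i by 2.33 on the log2 scale (SE 0.44, 95% interval 1.39 to 3.27, adjusted p = 0.00901, limma), rank 100, beside a described gap of 3.09 in control cells. The level in 2i after knockdown was 49.9% of control (log2 difference −1.02, 95% interval −1.96 to −0.08, unadjusted p = 0.036, adjusted p = 0.597, limma). It was the only member whose 3 knockdown libraries were all below the 3 control libraries in 2i, as 4.33% of genes were. Without the 3 libraries over 50% structural RNA, the gap between the media in knockdown cells was 1.90 and did not pass (adjusted p = 0.262, limma).

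Calr4 encodes a member of the calreticulin family, whose best known members are calcium-binding chaperones of the endoplasmic reticulum. It had 97.6, 215 and 152 normalised reads in 2i knockdown libraries and 98.9, 191 and 209 in 2i control libraries. Its serum values were 0, 16.0 and 3.84 in knockdown libraries and 0, 4.44 and 0 in control libraries, which came to 23 and 5 reads in all. The 2i groups covered the same range, and 3 of the 6 serum libraries held no read.

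In knockdown cells Calr4 was higher in 2i by 2.52 on the log2 scale (SE 0.39, adjusted p = 0.00329, limma), rank 69, beside a described gap of 2.98 in control cells. The ratio of 23.4-fold became 80.8-fold without serum knockdown replicate 2, which held most of the reads of its group. In 2i the level after knockdown was 93.2% of control (log2 difference −0.08, 95% interval −0.91 to 0.75, adjusted p = 0.98, limma). The gap in knockdown cells was 2.06 without the 3 libraries over 50% structural RNA and did not pass (adjusted p = 0.129, limma).

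Set side by side, 5 of the 6 members were called higher in 2i in knockdown cells at an adjusted p under 0.05, where 2.15% of the 14487 genes tested were called higher and 1.6% lower. All 6 had every 2i library above every serum library, where 8.99% of genes did. The members' median gap was 3.15 on the log2 scale, and that of all genes was −0.05. The members were chosen for high 2i values, with results of the knockdown libraries known. These values of all genes are therefore a background and not a test of the members.

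The gap in knockdown cells, as a share of the described gap in control cells, was 106% for Trpm1, 105% for Dmgdh, 96.6% for Crxos1, 84.4% for Calr4, 75.6% for Jakmip1 and 36.2% for Aqp3, with a median of 90.5%. These shares use the deposited log2 scale, which compresses differences near 0. The ratios of mean normalised reads, control cells then knockdown cells, were 52.2 and 144 for Trpm1 and 45 and 61 for Dmgdh. They were 51.9 and 47.6 for Crxos1, 10.2 and 7.13 for Jakmip1 and 15.8 and 2.11 for Aqp3. For Calr4 they were 112 and 23.4, with only 5 reads in serum control. In control cells 1.73% of genes were called higher in 2i. Of the 245 non-members among them, 121, or 49.4%, were called higher in knockdown cells, and the median share of the gap was 80.7% (quartiles 60.7% and 104%). Between those quartiles lay 3 of the 6 members, with Trpm1 and Dmgdh just above them and Aqp3 below, and no test of a difference was made.

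The 6 members ranked 1, 2, 5, 10, 12 and 13 by the size of the gap in control cells; the list names the genes and sets no threshold. The 10 non-members with the largest gaps there, among genes whose control groups did not overlap, kept a median of 86.2% of the gap, and 6 of them passed in knockdown cells. Nkx1-2, a homeobox gene that ranked 3 in control cells, kept 38.9%: it had 112, 16.2 and 11.1 normalised reads in 2i knockdown libraries and 592, 291 and 523 in 2i control libraries. Its fall with knockdown in 2i passed the test (log2 change −2.82, adjusted p = 0.00313, limma), as none of the 6 members' differences did. The 2i control libraries in that test also chose Nkx1-2, through its gap in control cells. How much of the fall comes from that choice cannot be told. Its gap between the media in knockdown cells was 1.57 (adjusted p = 0.0657, limma). Leaving out the 3 libraries over 50% structural RNA keeps only replicate 1 of 2i knockdown, with 112 normalised reads. The gap was then 2.70, and the fall of Nkx1-2 with knockdown in 2i did not pass.

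**Figure D3:**
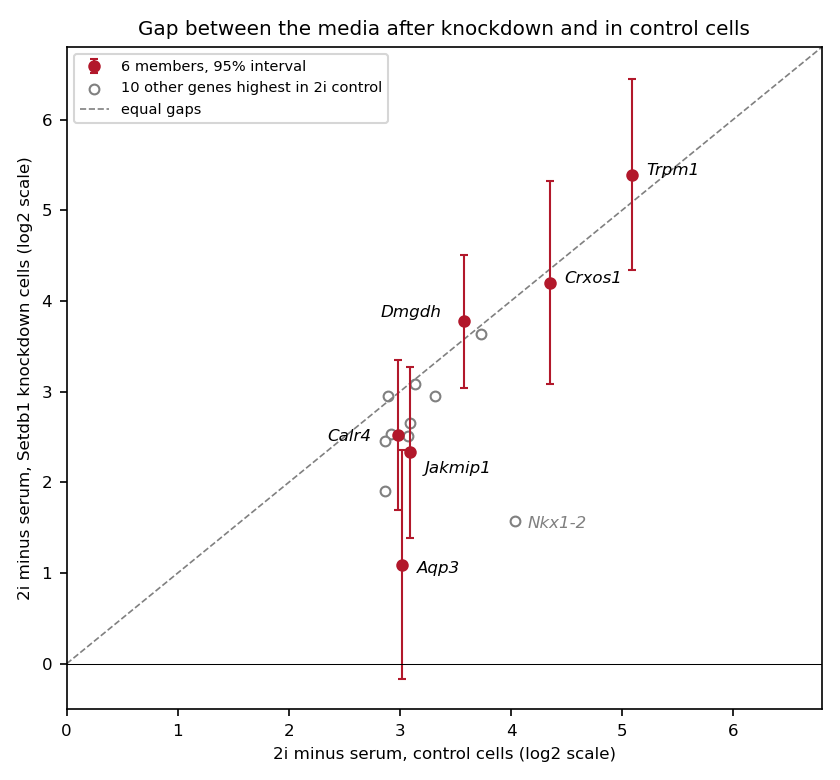
The gap between the media on the log2 scale, 2i minus serum, in knockdown cells (vertical axis, with 95% intervals for the 6 members) against the same gap in control cells (horizontal axis, no error drawn because it chose the members). The intervals of Trpm1, Crxos1, Dmgdh, Jakmip1 and Calr4 include the dashed line of equal gaps, whereas the interval of Aqp3, −0.17 to 2.36, includes 0 and lies below the line. Because the control gaps chose the members and are drawn without error, the place of an interval against the line is not a test. Open circles are 10 other genes.

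With knockdown in 2i, 0 of the 6 members were called, where 1.27% of genes were called. The members' differences were between −1.02 and 0.34 on the log2 scale with a median of −0.34, and 5 of the 6 were below 0. At an unadjusted p under 0.05 there was 1 member, Jakmip1, and 7.37% of all genes. The 2i control libraries had chosen the members for high values, so low differences here cannot be told apart from the effect of that choice. The 245 other genes chosen on the same libraries had a median of −0.28.

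With knockdown in serum, 0 of the 6 were called, where 0.649% of genes were called. The differences were between −1.06 for Trpm1 and 1.34 for Aqp3, with a median of 0.06. At an unadjusted p under 0.05 there were 2 members, those same genes in opposite directions, and 5.09% of all genes. The serum control libraries are part of the control gap for which the members were chosen. A rise in serum or a smaller gap after knockdown therefore cannot be told apart from the effect of that choice. For the difference between the changes in the 2 media 0 members and 0% of genes were called; at an unadjusted p under 0.05 there was 1 member, Aqp3, and 2.79% of all genes. The intervals were wide with 3 libraries a group. For Trpm1 in 2i the interval ran over −1.82 to 0.29 on the log2 scale, so changes within it remain compatible with these libraries.

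**Figure D4:**
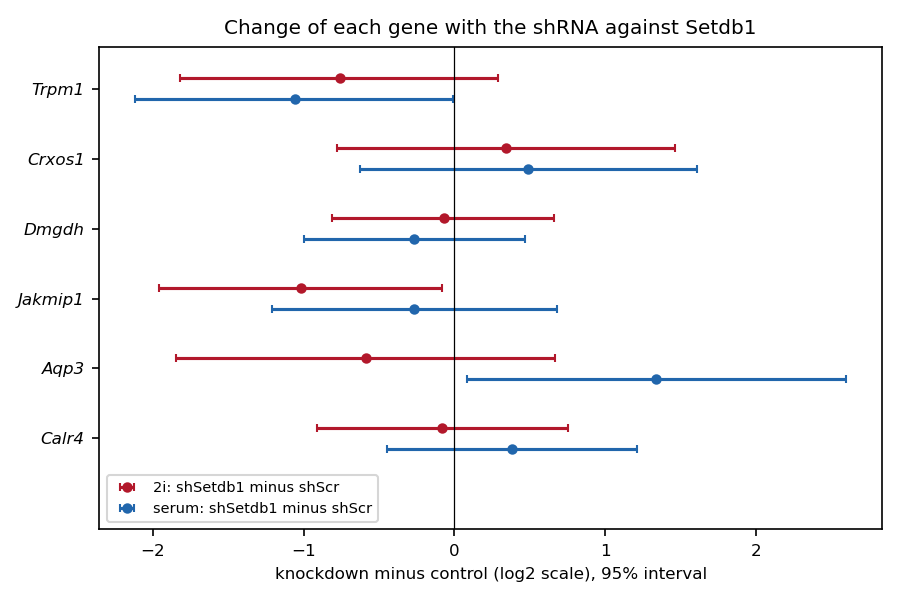
Knockdown minus control on the log2 scale (horizontal axis) for each gene in 2i (red, upper point) and in serum (blue, lower point), with 95% intervals from the fit over 12 libraries. The intervals of Jakmip1 in 2i, Trpm1 in serum and Aqp3 in serum just exclude 0, and none of these passed after adjustment over all genes.

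Relatives of the members were counted in the same way. Between the media in knockdown cells, 0 of 3 other TRPM channel genes passed (median log2 gap 0.62), as did 0 of 4 other aquaporins (median −0.05), 0 of 6 JAKMIP relatives and Janus kinase genes (median −0.08) and 0 of 7 calreticulin, calnexin and partner chaperones (median −0.23). Trpm7, a widely expressed channel kinase, averaged 3270 ± 701 normalised reads in 2i knockdown cells and 2036 ± 169 in serum knockdown cells (SD, n = 3 each; log2 gap 0.66, adjusted p = 0.203, limma). Calr, the calreticulin gene itself, averaged 9272 ± 2192 in 2i knockdown cells and 13689 ± 1487 in serum knockdown cells (log2 gap −0.58, adjusted p = 0.381, limma). Of 5 other homeobox genes of the PRD class and the Crx locus, Duxbl was lower in 2i in knockdown cells (log2 gap −1.89, adjusted p = 0.0191, limma), with a gap of −0.74 in control cells (adjusted p = 0.391, limma). The count of 1 was 0 to 3 over 21 alternatives and held in 11 of them.

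Of 22 other betaine and one-carbon genes, 2 were higher in 2i in knockdown cells, Bhmt and Bhmt2, and the median gap was −0.04. Sardh, whose enzyme takes the sarcosine made by Dmgdh, had 26 reads over all libraries, and Chdh, whose enzyme makes the betaine precursor, had 9.

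Genes that read out the 2 inhibitors were counted in the same comparison. Of 16 ERK response genes, 4 were lower in 2i in knockdown cells and 0 higher, with a median log2 gap of −1; these were Spry4, a feedback inhibitor of the pathway (−4.0, adjusted p = 0.00639, limma), the ETS factor gene Etv4 (−3.21) and the phosphatase genes Dusp4 (−3.09) and Dusp6 (−3.04). Of 13 Wnt response genes 2 were higher, Sp5 (2.65, adjusted p = 0.0122, limma) and Apcdd1 (1.89, adjusted p = 0.0156, limma), a count that was 0 to 4 over 21 alternatives. In control cells 3 were higher: Sp5 (3.09, adjusted p = 0.00501), Axin2 (2.51, adjusted p = 0.00501) and T (2.38, adjusted p = 0.00903, limma). Apcdd1, an inhibitor of Wnt signalling, had a gap of −0.08 in control cells (adjusted p = 0.959, limma) and was higher after knockdown in 2i (log2 change 1.73, adjusted p = 0.0446, limma). That single call of the Wnt list with knockdown in 2i held as a count in 3 of 22 alternatives (0 to 2). Of 20 naive pluripotency genes 2 were higher, Tcfcp2l1 (1.85, adjusted p = 0.0363, limma) and Prdm14 (1.47, adjusted p = 0.022, limma); the count was 0 to 6 over 21 alternatives and the same in 7, and in control cells it was 0. Of 11 primed and early post-implantation genes 4 were lower and 0 higher, the DNA methyltransferase gene Dnmt3a (−2.85, adjusted p = 0.00387, limma), Lin28b (−2.93), Pou3f1 (−2.80) and Wnt8a (−2.15), a count that was 0 to 6 over 21 alternatives. That of the ERK response genes was 1 to 8. In control cells 2 of the 11 primed and early post-implantation genes were higher in 2i, T and Lefty2 (2.32, adjusted p = 0.046, limma). Only 1 was lower there, Dnmt3a (−2.23, adjusted p = 0.0144, limma). The members' gaps in knockdown cells, between 1.09 and 5.39, compare with a median of 0.57 for the naive pluripotency genes.

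The chromosomal neighbours of the members were checked, 3 on each side in the RefSeq order (GRCm38.p6). Of 36 neighbours 25 were tested, and in knockdown cells 2 were higher in 2i, Bhmt and Bhmt2, where 2.15% of all genes were. Evc, near Jakmip1, was lower in 2i: it had 5.38, 17.3 and 0 normalised reads in 2i knockdown libraries and 154, 167 and 121 in serum knockdown libraries (log2 gap −2.45, adjusted p = 0.0124, limma). None of the 25 was called with knockdown in either medium, where 1.27% of all genes were in 2i and 0.649% in serum. In control cells 3 were higher in 2i, Bhmt2, Sepw1 and Lhfpl2, where 1.73% of all genes were. Sepw1, next to Crxos1, had a gap of 1.35 in control cells (adjusted p = 0.0369, limma) and 1.05 in knockdown cells (adjusted p = 0.104, limma). Lhfpl2, near Dmgdh, had a gap of 1.71 in control cells (adjusted p = 0.0303, limma) and 1.04 in knockdown cells (adjusted p = 0.18, limma).

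Across the 12 libraries the deposited values of the members were correlated with each other, with Pearson's r between 0.73 and 0.97 over 15 pairs and a median of 0.92; the 5 pairs of Aqp3 were the lowest. These values rest on the step between the media. Within the 6 libraries of 2i the median r was 0.50 (−0.47 to 0.76), and within the 6 libraries of serum 0.30 (−0.49 to 0.77), where all members share the same libraries and their depth.

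The genes whose values ran most like each member's over the 12 libraries, by Pearson's r, also stepped between the media. For Trpm1 these were Slc4a5, a bicarbonate transporter gene (r = 0.979), Pglyrp1 (0.973) and Cdo1, which encodes cysteine dioxygenase (0.972). For Dmgdh they were Ckb, the brain type creatine kinase (0.984), Gss, glutathione synthetase (0.981), and Prss35 (0.967). For Crxos1 they were Gm4222 (0.985), D6Mm5e (0.982) and Kctd6 (0.977). For Jakmip1 they were 2410137F16Rik (0.974), the helix-loop-helix inhibitor gene Id4 (0.959) and Sepw1 (0.956). For Calr4 they were C030039L03Rik (0.963), Mpzl2 (0.958) and Slc26a5 (0.955).

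Aqp3 had the least close matches, Gm6169 (0.924), Hmox2 (0.919) and Tnfrsf19 (0.918). Hmox2, the constitutive heme oxygenase, averaged 594 normalised reads in 2i knockdown, 659 in 2i control, 531 in serum knockdown and 324 in serum control cells, so that, as for Aqp3, serum control was the lowest of the 4 groups. The mean profile of the 6 members, each scaled over the libraries, ran closest to D6Mm5e (r = 0.973) and Aldh1l1, a folate enzyme gene (0.971), then to Gm4222, Kctd6 and 2410137F16Rik. These likenesses are descriptions over 12 libraries that share the medium step, with no test.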

How the data were processed

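RNA from 12 libraries was sequenced with a directional, rRNA-depleted kit, per the labels' protocols. Per the submitters' processing notes, reads were trimmed with Trim Galore 0.3.3 and aligned to mm9 with TopHat2 2.0.9, and values came from DESeq2; the sources used here name neither annotation nor counting settings. The authors deposited variance-stabilised values on a log2 scale, which compress differences near 0. Inverting that scale gave whole reads for 100% of gene values (within 0.01 of a read) and from them normalised reads. Log2 values were fitted with limma 3.58.1 (R 4.3.3), 1 mean per group, with 8 residual degrees of freedom, on the 14487 genes whose mean was at least 0.5 above the lowest value, 4.4522. P-values are two-sided, with Benjamini-Hochberg adjustment over those genes and a threshold of 0.05. The fit was tested on simulated data, with changes only in genes well above 0 reads and the same spread setting for every gene. That test did not cover genes near 0 reads in serum, such as Calr4 and Dmgdh. Members and lists were chosen with earlier results of these data known. Named were the members, Setdb1, the 3 genes most correlated with each member and 5 with their mean, the 10 largest other gaps in control cells (given as a set, with Nkx1-2 alone singled out after its values were seen), and up to 4 passing genes of a list. Trpm7, Calr, Sardh, Chdh, Crx, the single stem cell, pigment, retinal, fibroblast and epithelial markers and the neighbours were singled out after their values were seen. Same-numbered serum libraries deviated together (correlations of knockdown with control 0.58, 0.23 and 0.51), but those of 2i did not all do so (0.46, 0.06 and 0.52), nor did 2i with serum knockdown (0.50, 0.01 and 0.44). Alternatives were no filter, other scalings and variance models, voom on the recovered reads, a replicate block and leaving out libraries.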

Additional observations from a re-analysis of the deposited data

How the results depend on the processing

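In knockdown cells 5 of the 6 members were called higher in 2i in 20 of 21 alternatives; without the 3 libraries over 50% structural RNA (2i knockdown replicates 2 and 3 and 2i control replicate 3, an alternative chosen after seeing the data, which leaves 1 library in 2i knockdown, assumed to vary like the other groups) the count was 3. Aqp3 was called in 0 of the 21 alternatives (log2 gap 0.52 to 1.62). No member was called with knockdown in either medium, or for the difference of the changes, in any alternative. The number of genes called between the media in knockdown cells, 543 with all libraries, was 195 with only the 2 groups compared, 212 and 240 with voom, 75 without the 3 libraries, and 144 to 1522 with 1 library left out; it was 1522, 298 and 219 without 2i knockdown replicates 1, 2 and 3, and 252 and 144 without serum knockdown replicates 1 and 2. With a replicate block it was 1583, and the block changed no call of a member. Some differences that passed no test changed sign: with 1 library left out, knockdown minus control ran in 2i over −0.08 to 0.86 for Crxos1, −0.33 to 0.13 for Dmgdh and −0.35 to 0.15 for Calr4, and in serum over −0.65 to 0.18 for Jakmip1. The difference of the changes ran over −0.29 to 0.95 for Trpm1, −0.58 to 0.37 for Crxos1 and −0.07 to 0.49 for Dmgdh. Without the 3 libraries, knockdown minus control in 2i was −0.25 for Crxos1 and 0.00 for Aqp3, and the difference of the changes was −0.63 for Trpm1. Setdb1 in 2i had an adjusted p of 0.0978 there (limma). Bhmt missed the threshold with voom (adjusted p = 0.0593 and 0.069) and without serum knockdown replicate 2 (0.056, limma), and Bhmt2 with 1 of the voom scalings (0.0517). The cause was not tested. Low reads in serum limit the ratios of Calr4 and Dmgdh.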
